A study of Mus musculus with 8 samples.

Results

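RNA recovered with ribosomes was set against the total RNA of mouse embryonic stem (ES) cells, to find which classes of RNA were over- or under-represented on ribosomes before differentiation begins. The comparison used 4 of the 8 libraries of the series, 2 of ES input and 2 of ES Rpl10a-IP, and all 3160 genes of the deposited table. The cells were the E14Tg2A line, of strain 129/Ola, grown on gelatin in serum with leukaemia inhibitory factor and taken at 0 days in vitro. They were treated with cycloheximide, which stalls ribosomes on the RNA they are translating. The input was an aliquot of the cleared lysate, and the Rpl10a-IP was what an antibody against the endogenous large-subunit protein Rpl10a brought down from that lysate. RNA of both fractions was depleted of ribosomal RNA before sequencing. All libraries came from 1 cell line, and nothing in the labels says that replicates were separate cultures. The p-values and SEs rest on the spread between these libraries, pooled largely over genes, and that spread may be technical. Pull-downs with a control antibody were not analysed here.

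An mRNA in use carries several ribosomes at once, and an RNA that is stored, nuclear or noncoding carries few or none. The share of an RNA that comes down with ribosomes therefore differs between RNAs. Several textbook cases of regulation at this step bear on the classes below. Messages that begin with a terminal oligopyrimidine (TOP) tract, among them those of the ribosomal proteins, move as a group between ribosomes and ribosome-free particles with growth signals. Iron-responsive elements, short hairpins bound by iron regulatory proteins, block initiation when they lie near the cap and stabilise the message when they lie in the 3′ untranslated region (UTR). Long noncoding RNAs (lncRNAs) mostly lie in the nucleus and have no long reading frame. The pull-down does not count ribosomes per molecule, and it does not tell full ribosomes from free large subunits.

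Ribosome enrichment was taken as log2 of Rpl10a-IP over input. The deposited fractions had been scaled separately, so that as deposited every gene stood higher in Rpl10a-IP, by a median of 4.05 on the log2 scale. This shift carries no information on any gene. It was removed, and a log2 ratio of 0 is that of the median gene. Values per library below are normalised counts after this centring. Depth over the table was 5380139 and 3898414 reads in the input libraries, with at least 20 reads for every gene, and 18077263 and 19233487 reads in the Rpl10a-IP libraries. These reads were inferred from the step between neighbouring deposited values in each library. Of 17 listed markers of naive and core pluripotency 8 were in the table, Pou5f1, Nanog, Klf2, Klf4, Tfcp2l1, Sall4, Tdgf1 and Fgf4. Their summed normalised count was 28698 and 28381 in input and 28973 and 29744 in Rpl10a-IP. Of other cell types, Lama1 and Lamb1 of 13 primitive endoderm markers were in the table and summed to between 1924 and 2096 in the 4 libraries, and Nes and Map2 of 7 neural progenitor markers summed to between 535 and 677. Those of trophectoderm, of primed epiblast and early mesoderm, and of fibroblasts gave 0 members of 8 each.

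The ratios were narrow. Their SD over genes was 0.30, and the middle 95% of them lay between −0.63 and 0.53. By limma, 713 genes were higher in Rpl10a-IP (22.6% of those tested) and 622 were lower (19.7%) at an adjusted p-value (Benjamini-Hochberg) under 0.05. Beyond 1.5-fold, 45 of these genes were higher (1.42%) and 112 were lower (3.54%), so the lower side held the longer tail. The balance of calls turned with the scaling. Scaled by total reads, 601 genes were higher and 756 lower, and beyond 1.5-fold 28 and 132. With a correction for transcript length and GC content and the replicate number as a block, 675 were higher and 719 lower. Every value given below with the length and GC correction comes from this fit, block included. The calls depended on both Rpl10a-IP libraries. There were 1335 in all, 727 without Rpl10a-IP replicate 1 and 786 without replicate 2. The number higher beyond 1.5-fold was 75 without input replicate 2. No gene of the table had replicate ratios with an SD above 20% of their mean, in ES cells or in the later stage. A table restricted in this way can give adjusted p-values that are too small.

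**Figure D1:**
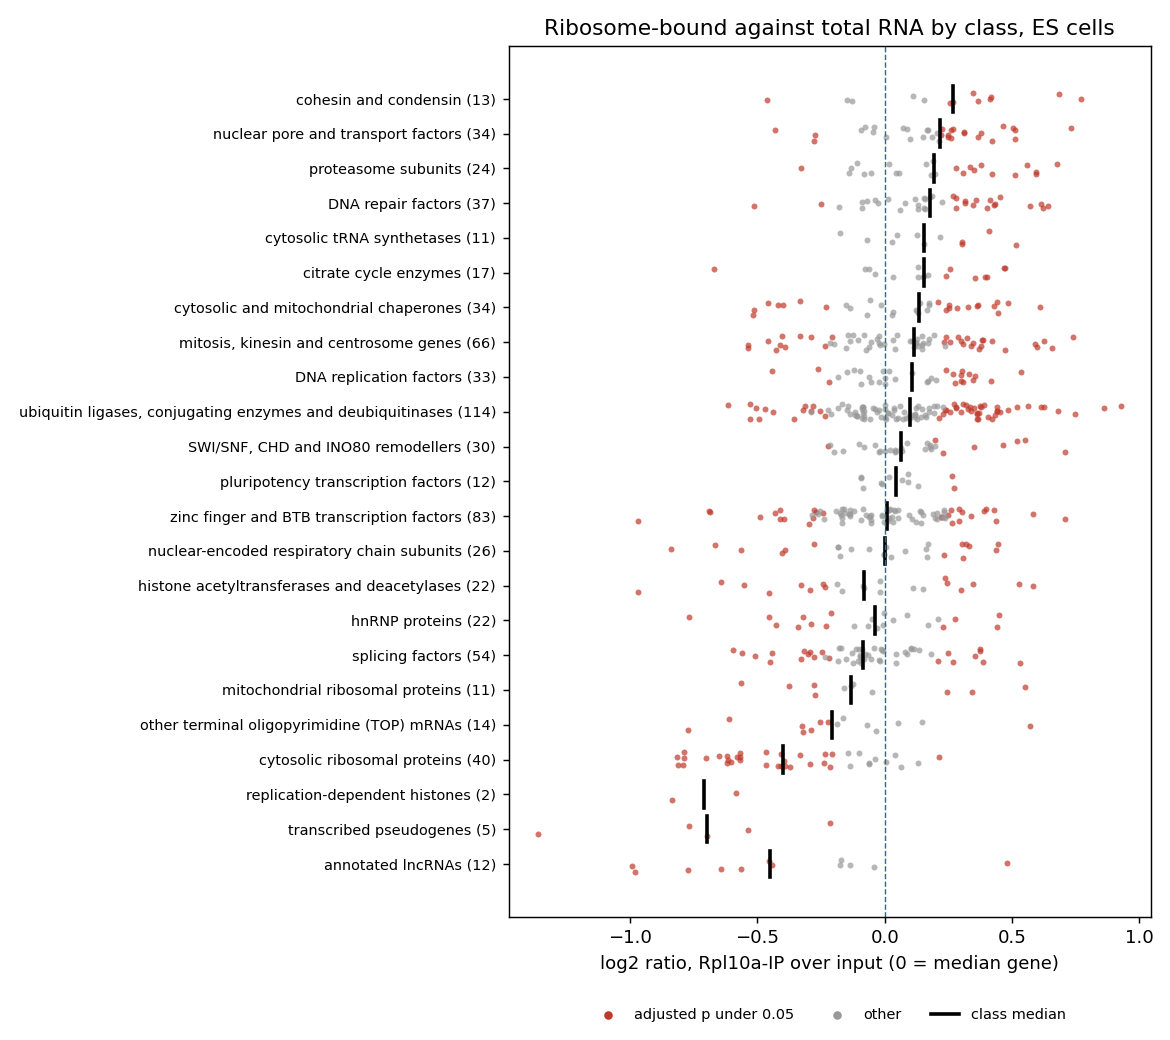
Log2 ratio (Rpl10a-IP to input) in ES cells (horizontal axis, 0 = median gene) for the members of 23 classes, with the number of members in brackets. Each point is a gene, red where the adjusted p-value was under 0.05, and the black bar is the class median, which runs from −0.71 for histones to 0.27 for cohesin and condensin.

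Sequences searched for in the regulated classes are shown first. A TOP tract is pyrimidine-rich and lies at the transcription start. A match away from the listed start may not be part of such a tract. The letters CTTTC were searched on the strand of the gene, from 50 bases before to 50 after each RefSeq start (GRCm38.p6). They were present in 16 of the 30 ribosomal protein genes of the table that had a start listed (53.3%), in 12.7% of the genes of the table and in 14.6% of all genes listed. The complement on the other strand, GAAAG, was present in 13.3% and 13.8% of the ribosomal protein genes and of all genes. The 4 genes with the lowest ribosome enrichment among those with a match were these, 5′ to 3′ on the gene's strand with the match nearest the start in capitals. Rpl35 holds a further match, left in lower case, before it. The match in capitals began 41 bases before the listed start in Rps19 (chr7:24884623-24884652, plus strand), at the start itself in Rpl38 (chr11:114668568-114668597, plus strand), 37 bases after it in Rpl39 (chrX:37085173-37085202, minus strand) and 2 bases after it in Rpl35 (chr2:39005112-39005141, minus strand).
Rps19: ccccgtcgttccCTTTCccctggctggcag
Rpl38: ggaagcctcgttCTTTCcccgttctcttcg
Rpl39: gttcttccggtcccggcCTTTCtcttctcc
Rpl35: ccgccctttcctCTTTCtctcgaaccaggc
Within the ribosomal proteins, the median log2 ratio was −0.41 for genes with the letters in this window and −0.39 for those without. Among the other genes of the table it was −0.02 for the 308 with them and 0.00 for the 2209 without.

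mRNAs of cytosolic ribosomal proteins were the largest class that stood low on ribosomes. Of the 40 in the table, 29 were lower in Rpl10a-IP, which is 72.5% beside 19.7% of all genes, and 11 of them beyond 1.5-fold. One, Rpl10a, was higher. The median log2 ratio was −0.40. The class took 7.47% and 6.90% of the reads of the table in the input libraries and 5.53% and 5.83% in the Rpl10a-IP libraries. Ribosomal protein genes have many processed pseudogenes, and reads with up to 2 places in the genome were kept at mapping, so the division of reads between them is uncertain.

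The lowest members came from both subunits. Rps19 had 2967 and 2785 normalised counts in input and 1582 and 1693 in Rpl10a-IP, a log2 ratio of −0.81 ± 0.08 (SE; limma, adjusted p = 4.05e-13). Rps28 had 3174 and 2920 in input and 1692 and 1778 in Rpl10a-IP, also −0.81. Rpl38, whose start is shown above, had 3145 and 3033 in input against 1721 and 1858, a log2 ratio of −0.79. In each of these the libraries of the 2 fractions did not overlap, as in 32.2% of all genes on the lower side. Rps16 and Rps14 were lower by the same amount as Rpl38, at −0.79 each. With the length and GC correction Rps19 was at −0.68, Rps16 at −0.46, Rps28 at −0.37 and Rpl38 at −0.31.

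The class was not uniform. At the other end, Rpl5, a large-subunit protein that joins the 5S ribosomal RNA before assembly, had 35149 and 32366 normalised counts in input and 34571 and 34760 in Rpl10a-IP (log2 ratio 0.04, adjusted p = 0.71). Rpl3, Rpl7, Rpl15, Rps4x and Rps13 lay between −0.06 and 0.13 and none passed the test. Rpl10a itself, the protein bound by the antibody, had 4905 and 4469 in input and 5890 and 5021 in Rpl10a-IP, a log2 ratio of 0.21 ± 0.08 (SE; adjusted p = 0.029). Its call was lost without Rpl10a-IP replicate 1 (0.10), without input replicate 2 (0.14), with total reads (0.17) and with all 8 libraries in the fit. With the length and GC correction and the replicate block Rpl10a was higher by more (0.49; limma, adjusted p = 4.19e-15). Small-subunit members had a median of −0.39 (13 of 17 lower) and large-subunit members of −0.41 (16 of 23 lower). With each library corrected for transcript length and GC content and with the replicate block, the class median was −0.24, with 23 members lower and 5 higher.

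**Figure D2:**
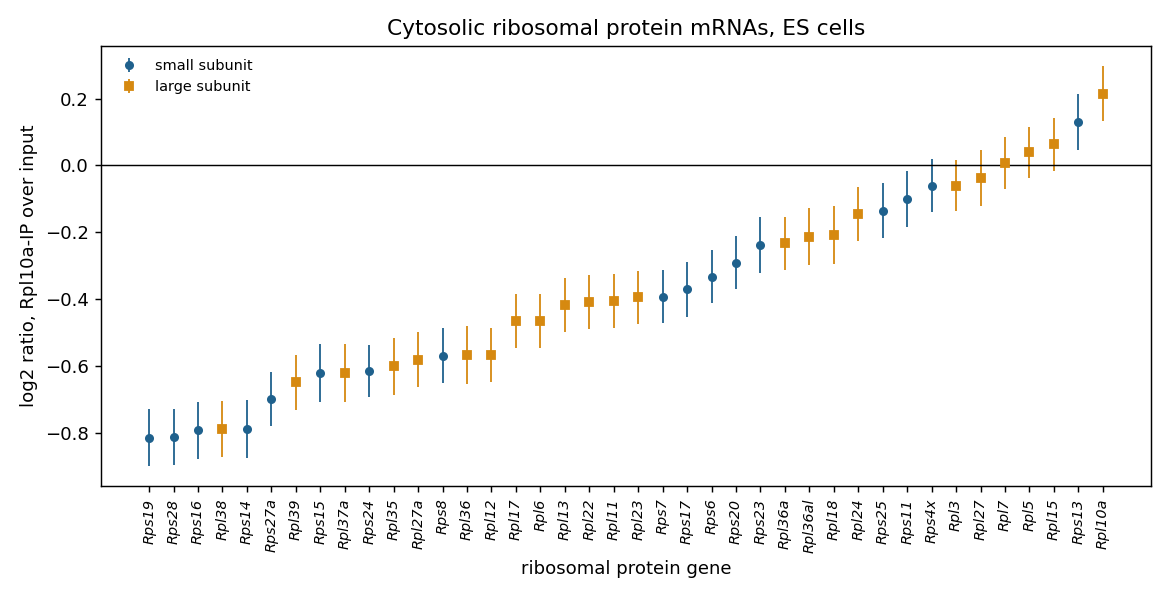
Log2 ratio (Rpl10a-IP to input) (vertical axis, 0 = median gene) for the 40 cytosolic ribosomal protein genes, in rising order. Points are fitted ratios and bars are SE (2 libraries per fraction). Both subunits run from near −0.8 up to Rps13 (0.13) and Rpl10a (0.21).

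Other TOP messages also leaned low. Of 14 in the table, 7 were lower, beside 19.7% of all genes, and 1 was higher, with a median of −0.21. Tpt1, which encodes the abundant tumour protein TCTP, had 13781 and 12322 normalised counts in input and 7195 and 8076 in Rpl10a-IP (log2 ratio −0.77). Pabpc1, the cytoplasmic poly(A)-binding protein, had 19102 and 19124 in input and 12474 and 12557 in Rpl10a-IP (−0.61). Both lay low in every Rpl10a-IP library. Eif3e, a subunit of the initiation factor that recruits the small subunit, went the other way, from 3197 and 3355 in input to 4804 and 4941 in Rpl10a-IP (0.57). Elongation factors ran from low to near the median gene. Eef1b2 was lower (−0.33), Eef2 was lower by less (−0.25, a call lost without input replicate 1 and without either Rpl10a-IP library, among other settings), and Eef1a1 had 78505 and 71481 in input and 69403 and 77092 in Rpl10a-IP (−0.03, adjusted p = 0.75).

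Other groups of the translation machinery lay nearer the shares of all genes, 22.6% higher and 19.7% lower. Of 25 initiation factors 7 were higher and 4 lower, with a median of −0.01. Of 11 cytosolic tRNA synthetases, which load amino acids on tRNAs, 4 were higher (36.4%) and 0 lower (median 0.16). They were led by Eprs (6719 and 6298 in input, 9935 and 8732 in Rpl10a-IP, log2 ratio 0.52) and Rars (0.41). With the length and GC correction 7 of these 11 were higher and 0 lower (median 0.23), beside 675 and 719 of 2979 genes. Abce1, which recycles ribosomes after termination, had 4096 and 4568 in input and 6623 and 6628 in Rpl10a-IP (0.61). Ribosome biogenesis factors were even, with 7 of 35 higher and 7 lower (median 0.03). Mitochondrial ribosomal proteins, with 3 of 11 higher, 4 lower and a median of −0.13, ranged from Mrpl51 (−0.56) to Mrpl1 (0.55).

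Messages of iron metabolism lay at both ends. Fth1, the heavy chain of the iron store ferritin (chromosome 19, 9980600 to 9985111), had 4709 and 4641 normalised counts in input and 1206 and 1266 in Rpl10a-IP. Its level on ribosomes was 0.264 of the input relative to the median gene (log2 ratio −1.92 ± 0.08, SE; limma, adjusted p = 1.71e-36). Tfrc, the transferrin receptor that imports iron, stood on the opposite side, with 3718 and 4328 in input and 5659 and 6037 in Rpl10a-IP (0.54). The fractions did not overlap for either gene. Pseudogenes nearly identical to Fth1 may take or lend reads, and its size is uncertain for that.

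The iron-responsive elements of both messages were read from GENCODE vM1 transcripts (NCBIM37). The search, on the transcript strand, was for a C, 5 bases of any kind and then CAGTGN, which are the unpaired C of the hairpin, its upper stem and its loop. The loop is in capitals. Fth1 carries it in the 5′ UTR, at transcript bases 30 to 58. Tfrc held 5 matches in its 3′ UTR, of which the third and the fourth overlap, and the first and the last are shown (bases 3315 to 3343 and 3806 to 3834).
Fth1: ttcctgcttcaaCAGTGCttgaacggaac
Tfrc, first: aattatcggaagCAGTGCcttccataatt
Tfrc, last: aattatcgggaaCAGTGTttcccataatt
The letters alone are common. They were found in the first 200 bases of 5.82% of all 5′ UTRs of 50 bases or more, and the 143 genes of the table with them there had a median log2 ratio of 0.02, with 33 higher and 29 lower. At least 4 matches, as in Tfrc, stood in the first 2400 bases of 1.89% of 3′ UTRs that long.

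The lowest ratio of all was that of Slc7a14, a member of the cationic amino acid transporter family (chromosome 3, 31202854 to 31310567). It had 531 and 535 normalised counts in input and 82.3 and 85.3 in Rpl10a-IP, 0.157 of the input (log2 ratio −2.67 ± 0.11, SE; limma, adjusted p = 6.23e-37). The libraries within each fraction were close and the fractions lay far apart. RefSeq places the lncRNAs Gm33834 and Gm15496 within its span, and the strand used in counting is not given in the sources used here, so its reads cannot be assigned to the mRNA alone. Solute carriers as a class, Slc7a14 included, were spread around the median gene, with 9 of 35 higher and 4 lower, and Slc12a2, the sodium-potassium-chloride cotransporter, was the highest (0.63).

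Genes annotated as noncoding were few in the table and mostly low on ribosomes. Of the 5 members of a list of small nucleolar host genes and other lncRNAs 4 were lower (median −0.98). RefSeq gave 12 lncRNAs, of which 7 were lower (58.3%, beside 19.7% of all genes) and 1 higher (median −0.45), and 5 transcribed pseudogenes, all 5 lower (median −0.70). These 2 groups were formed from the annotation after the values had been seen, and they hold all 5 members of the list, so the counts are not separate. The lowest was 2610005L07Rik, a transcribed pseudogene on chromosome 8 (20385782 to 20424814), with 1237 and 1154 normalised counts in input and 488 and 445 in Rpl10a-IP (log2 ratio −1.36). Ftx, an lncRNA of the X-inactivation centre and host of microRNAs, had 126 and 97.7 in input and 63.9 and 51.6 in Rpl10a-IP (−0.99). 1700020I14Rik had 270 and 306 in input and 142 and 153 in Rpl10a-IP (−0.98). In each the input libraries were the higher pair.

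Not every noncoding gene was low. Rian, an imprinted lncRNA that hosts small nucleolar RNAs, was lower by less (−0.46). Mir17hg, the host of a microRNA cluster, had 153 and 133 in input and 141 and 119 in Rpl10a-IP (−0.18, adjusted p = 0.29). Gm10336 was higher, with 175 and 211 in input and 274 and 272 in Rpl10a-IP (0.48), and it overlaps the coding gene Mtr. The pseudogene Gm6548, which overlaps Eif2ak2, was the least changed of its group (−0.21), and its call was lost under several other settings. The noncoding genes as a whole took at most 0.219% (lncRNAs) and 0.0680% (pseudogenes) of the reads of any library.

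**Figure D3:**
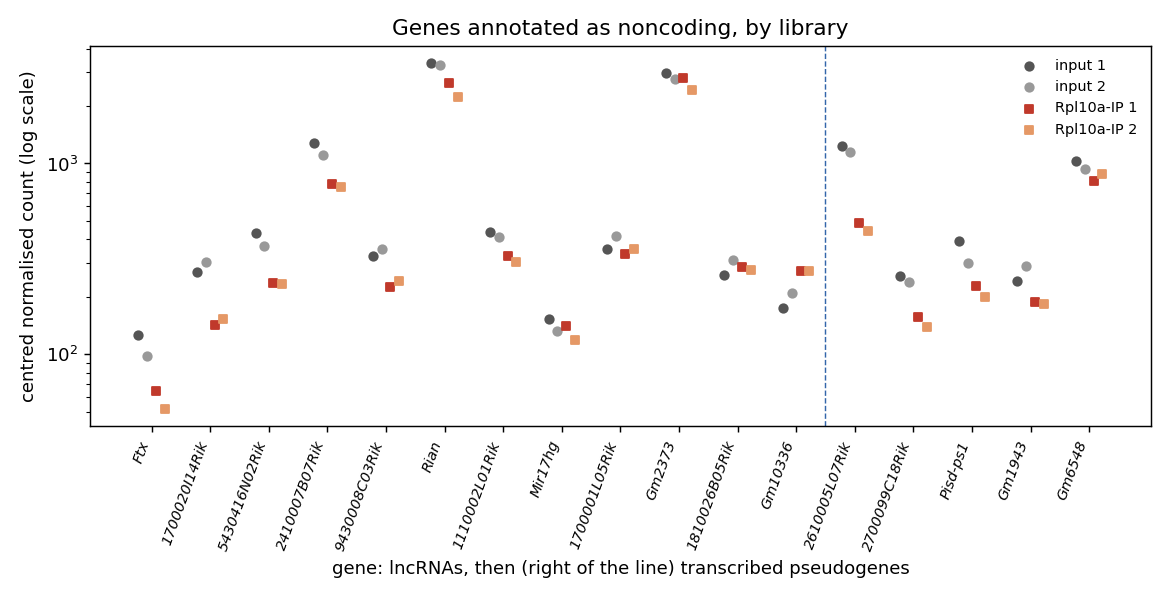
Centred normalised counts (log axis) in the 4 ES libraries for the 12 lncRNAs and, right of the dashed line, the 5 transcribed pseudogenes of the table. Circles are input and squares are Rpl10a-IP. The squares lie below the circles for most genes, and above them for Gm10336.

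Several protein-coding genes among the 12 lowest share their span with noncoding RNA genes. Taf1d, a subunit of the selectivity factor of RNA polymerase I, had 9322 and 7933 in input and 4518 and 4215 in Rpl10a-IP (−0.98). Its span holds small nucleolar RNA genes and overlaps Cep295. Zbtb37, a zinc finger gene whose span overlaps the small nucleolar host Gas5, had 251 and 232 in input and 142 and 110 in Rpl10a-IP (−0.97). The span of 107 genes that encode no ribosomal protein holds a small nucleolar RNA. Of these, 36 were higher (33.6%, beside 22.6% of all genes) and 22 lower (20.6%, beside 19.7%), with a median of 0.11.

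Others of the 12 lowest had no such overlap. Anp32b, an acidic nuclear histone chaperone, had 4214 and 3679 normalised counts in input and 1722 and 1443 in Rpl10a-IP (log2 ratio −1.32 ± 0.09, SE). Cflar, the inhibitor of death-receptor caspases, had 425 and 439 in input and 223 and 214 in Rpl10a-IP, 0.501 of the input. Zcchc10, a zinc knuckle gene, had 331 and 327 against 170 and 164, also 0.501 of the input. For all 3 both Rpl10a-IP libraries lay well under both inputs. Tjap1, a tight junction-associated protein, and Gatad2b, a subunit of the NuRD remodeller, were both at −0.97.

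**Figure D4:**
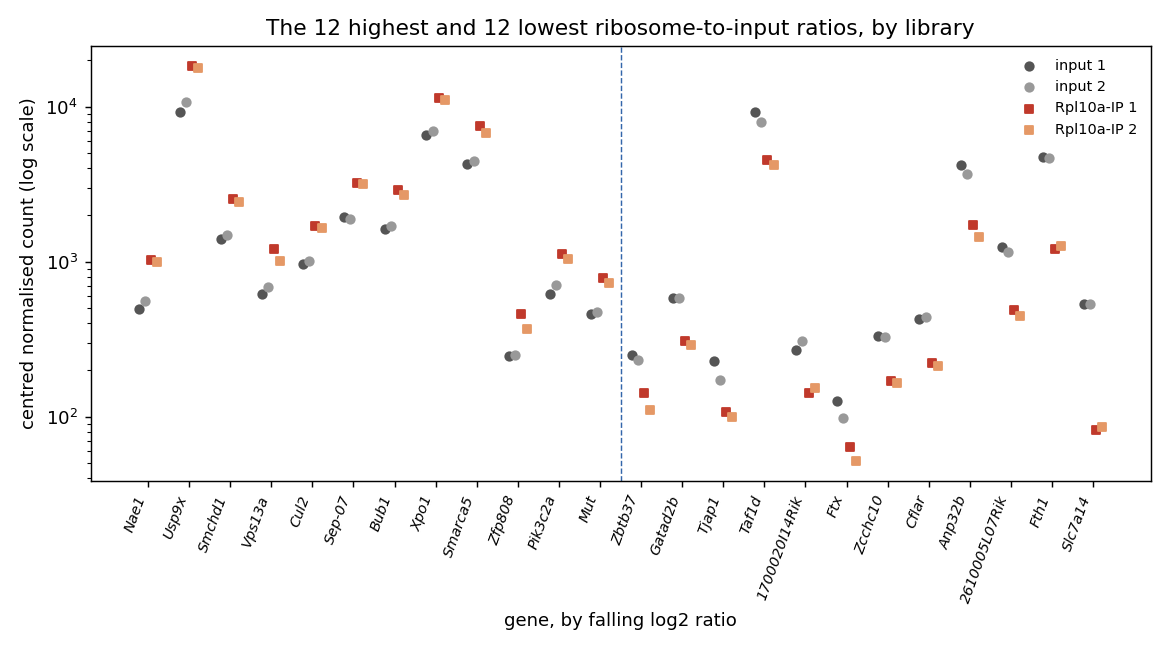
Centred normalised counts (log axis) in the 4 ES libraries for the 12 genes with the highest and, right of the dashed line, the 12 with the lowest log2 ratio (Rpl10a-IP to input). Circles are input and squares are Rpl10a-IP. The fractions do not overlap for any of the 24 genes, which is how they were chosen, and the gap is widest for Slc7a14 and Fth1. Sep-07 is spelled as in the table, where the symbol had turned into a date.

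On the higher side no gene reached the size of the falls. Nae1, which with its partner activates the ubiquitin-like protein NEDD8 (chromosome 8, 104511028 to 104534656), led with 498 and 562 normalised counts in input and 1031 and 998 in Rpl10a-IP, 1.90 of the input (log2 ratio 0.93 ± 0.09, SE; limma, adjusted p = 5.32e-14). Usp9x, a large X-linked deubiquitinase (chromosome X, 13070982 to 13173328), had 9297 and 10704 in input and 18418 and 17807 in Rpl10a-IP (0.86). The Rpl10a-IP libraries were the higher pair in both, as in 37.7% of all genes. Pik3c2a, a class II phosphoinositide kinase, and Mut, the mitochondrial methylmalonyl-CoA mutase, were at 0.69 each, and the zinc finger gene Zfp808 at 0.71.

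The cullins, scaffolds of ubiquitin ligases that NEDD8 switches on, lay on the same side. This subset was picked after the values had been seen. Of 7 in the table, 5 were higher and 0 lower (median 0.37). Cul2 had 969 and 1015 in input and 1689 and 1653 in Rpl10a-IP (0.75), and Cul4b had 5539 and 5919 in input and 9260 and 9127 in Rpl10a-IP (0.68). Cul7 was at 0.00. Over all 114 ubiquitin ligases, conjugating enzymes and deubiquitinases, 39 were higher (34.2%, beside 22.6% of all genes) and 14 lower (median 0.10).

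Proteasome subunits were high in part. Of 24 subunits 11 were higher (45.8%, beside 22.6% of all genes) and 1, the interferon-inducible regulator Psme1, was lower (−0.33), with a median of 0.19. All 6 alpha subunits of the core in the table were higher, from Psma4 (0.28) to Psma1, which had 969 and 969 in input and 1434 and 1506 in Rpl10a-IP (0.60). Of the 4 core beta subunits 1 was higher (median −0.01), and of the 11 subunits of the regulatory particle 3 were higher (median 0.18). This contrast depended on the processing. The fit with the length and GC correction and the replicate block left 3 of the 4 beta subunits higher (median 0.26). In that fit 7 of the 11 regulatory subunits and 5 of the 6 alpha subunits were higher. Psme4, an alternative cap of the core, was the highest of the class (4143 and 4676 in input, 7134 and 6963 in Rpl10a-IP, 0.68). Splitting the subunits in this way was a choice made with their values known.

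Chaperones were higher in 13 of 34 genes (38.2%, beside 22.6% of all genes) and lower in 7 (20.6%, beside 19.7%), with a median of 0.13. Within them the 8 subunits of the CCT ring, which folds actin and tubulin, all had positive ratios, and 6 were higher. Cct8 had 6570 and 6907 in input and 10261 and 10287 in Rpl10a-IP (0.61), Cct4 was at 0.49, and Cct7 was the lowest of the ring (0.12, adjusted p = 0.23). Dnajb12 (−0.52) and Bag1 (−0.51) led the lower chaperones. Against these, actin and tubulin genes and cytoskeletal motors were spread, with 9 of 48 higher and 12 lower. Tmsb4x, which binds actin monomers, had 3160 and 3129 in input and 2032 and 1889 in Rpl10a-IP (−0.68), while the motor Myo6 was higher (0.68).

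Transport through the nuclear pore was among the classes that stood high. Of 34 genes 17 were higher, beside 22.6% of all genes, and 3 lower (8.82%, beside 19.7%), with a median of 0.22. Xpo1, the main exporter of proteins with a leucine-rich signal, had 6575 and 6964 in input and 11327 and 11138 in Rpl10a-IP (log2 ratio 0.73 ± 0.08, SE). Among 15 importins and exportins, a subset again taken with values known, 11 were higher and 0 lower. Tnpo1 (0.51) and Ipo7 (0.50) followed Xpo1, and Kpnb1, the importin beta that serves most cargo, was at 0.00. The 16 nucleoporins were more mixed, with 6 higher and 2 lower, led by Nup160 (0.51).

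Cohesin and condensin genes were also high. Of 13, 8 were higher (61.5%, beside 22.6% of all genes) and 1 lower, the highest median of the listed classes (0.27). Smchd1, a relative of the SMC proteins that acts on the inactive X, had 1411 and 1493 in input and 2558 and 2416 in Rpl10a-IP (0.77), and the condensin subunit Ncapg was at 0.68. The exception was Ncaph2, a subunit of condensin II (−0.46). With the length and GC correction the class median was 0.15, with 7 higher and 2 lower.

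DNA repair factors were higher in 16 (43.2%, beside 22.6% of all genes) and lower in 2 of 37 genes (median 0.18). Prkdc, the catalytic subunit of the end-joining kinase, had 794 and 819 in input and 1411 and 1133 in Rpl10a-IP (0.64), and Brca2, which loads the recombinase, had 1004 and 1125 against 1706 and 1564 (0.61). Fancl (0.62) and Atm (0.57) followed. DNA replication factors were higher in 12 and lower in 3 of 33 (median 0.11), led by Orc3 (0.54), with Pcna at 0.42 and Gins2 at −0.44. Of 66 mitosis, kinesin and centrosome genes 20 were higher (30.3%, beside 22.6% of all genes) and 11 lower (16.7%, beside 19.7%), with a median of 0.12, so this class lay nearer the background. Bub1, a spindle checkpoint kinase, had 1636 and 1689 in input and 2890 and 2680 in Rpl10a-IP (0.74), and the kinesin Kif18a was at 0.66. Without Rpl10a-IP replicate 1 the median of this class was 0.05, and with the length and GC correction 0.03.

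Replication-dependent histones, whose messages end in a stem-loop and carry no poly(A) tail, stood low. The table held 2 of them. Hist1h2af had 308 and 267 in input and 159 and 167 in Rpl10a-IP (−0.84), and Hist1h1a had 2950 and 3076 in input and 1868 and 2166 in Rpl10a-IP (−0.58). Both were low in each Rpl10a-IP library. Histone genes share near-identical copies, so the division of reads between them is uncertain. With the length and GC correction Hist1h2af was at −0.21 (adjusted p = 0.087) and Hist1h1a at −0.30.

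The medians of the chromatin classes lay near the median gene, but single complexes split. Of 30 remodellers of the SWI/SNF, CHD and INO80 families 7 were higher (23.3%, beside 22.6% of all genes). Only 1 was lower (3.33%, beside 19.7%), and the median was 0.06. Smarca5, the ATPase of the ISWI remodellers, had 4257 and 4461 in input and 7515 and 6773 in Rpl10a-IP (0.71). Chd4, the ATPase of NuRD, had 5064 and 5285 in input and 5446 and 5394 in Rpl10a-IP (0.07, adjusted p = 0.54). The table held 8 NuRD subunits, a subset named after the values were seen. Of these, 3 were higher (37.5%, beside 22.6% of all genes), Hdac2 (0.53), Rbbp4 (0.28) and Mta2 (0.24). Another 3 were lower (37.5%, beside 19.7%), Gatad2b (−0.97), Mbd3 (−0.64) and Gatad2a (−0.46).

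Histone methyltransferases and demethylases were higher in 6 and lower in 7 of 28 (median 0.01). Setd1b had 313 and 290 in input and 194 and 176 in Rpl10a-IP (−0.72), and Setd1a had 974 and 882 against 656 and 564 (−0.61). These are the enzymes that methylate histone H3 at active promoters, and the related Kmt2d was also lower (−0.39). The demethylases Kdm6a (0.53) and Kdm1a (0.42) were higher. Of 22 acetyltransferases and deacetylases 6 were higher (27.3%) and 8 lower (36.4%, beside 19.7% of all genes), with a median of −0.08. Of 7 DNA methylation factors 0 were higher and 2 lower by limma (28.6%, beside 19.7% of all genes). Mbd4, a glycosylase that removes mismatched thymine, was at −0.28, and its call was lost without either Rpl10a-IP library and without input replicate 1. Dnmt3a (−0.11) and Dnmt3b (−0.02) did not pass the test.

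Transcription factors of pluripotency sat close to the median gene. Pou5f1 had 6435 and 5254 in input and 5718 and 5811 in Rpl10a-IP (−0.01 ± 0.08, SE), and the fractions overlapped. The direction of so small a value turned with the processing, to 0.13 without input replicate 1 and to 0.21 with the length and GC correction. Klf4 was at 0.09, Klf2 at 0.07, Sall4 at −0.09 and Tfcp2l1 at −0.09, and none of them passed the test. With the length and GC correction and the replicate block 4 genes of this class were higher, Nanog, Klf2, Klf4 (0.21, adjusted p = 0.0077) and Pou5f1 (adjusted p = 0.0013). Nanog was higher, with 2101 and 2070 in input and 2406 and 2642 in Rpl10a-IP (0.27, adjusted p = 0.0064). The call was lost without Rpl10a-IP replicate 2 (0.20) and with all 8 libraries in the fit. Of the 12 genes of this class 2 were higher and 0 lower, Zfp281 being the other (0.27), and its call was lost without either Rpl10a-IP library, without input replicate 1 and with the length and GC correction (0.10).

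The microRNA pathway was similar. Of 12 genes, Cnot1, the scaffold of the deadenylase complex, was higher (7434 and 7913 in input, 10187 and 10274 in Rpl10a-IP, 0.41) and Lin28b, which blocks let-7 processing, was lower (−0.28, a call lost without input replicate 2, at −0.12, and without either Rpl10a-IP library). Ago2 had 1492 and 1600 in input and 1428 and 1475 in Rpl10a-IP (−0.09, adjusted p = 0.40). Zinc finger and BTB transcription factors, the largest family of regulators in the table with 83 genes, were centred on the median gene, with 15 higher and 13 lower and a range from Zbtb37 (−0.97) to Zfp808 (0.71). Of 79 with a length and GC correction, 9 were higher and 27 lower, beside 675 and 719 of 2979 genes.

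Splicing factors stood near the background before any correction for length and GC content. Of 54, 8 were higher and 12 lower (22.2%, beside 19.7% of all genes), with a median of −0.09. Of 22 hnRNP genes 4 were higher and 8 lower (36.4%), with a median of −0.04. Hnrnph3 had 590 and 452 in input and 335 and 278 in Rpl10a-IP (−0.77), and Hnrnpa2b1, an abundant RNA-binding protein, was at −0.45. Taf15, of the related FET family, had 1324 and 1174 in input and 704 and 682 in Rpl10a-IP (−0.85). Snrpf of the Sm ring was lower (−0.60) and Snrpb2 of the U2 particle was higher (0.53). With the length and GC correction 22 of 52 splicing factors were lower and 9 higher, beside 719 and 675 of 2979 genes.

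Metabolic classes were mixed. Enzymes of the citrate cycle and those that feed it or act beside it were higher in 7 of 17 (41.2%, beside 22.6% of all genes) and lower in 1 (median 0.15). Dld (0.47) and Sucla2 (0.40) were among the higher, as was Idh1 (0.47), the cytosolic and peroxisomal isocitrate dehydrogenase that works outside the cycle, and Ogdh, which encodes the E1 subunit of the oxoglutarate dehydrogenase, had 1773 and 1857 in input and 1183 and 1101 in Rpl10a-IP (−0.67). Dld is the E3 subunit of that same complex. Nuclear-encoded respiratory chain subunits had a median of 0.00, with 7 of 26 higher (26.9%) and 6 lower (23.1%, beside 19.7% of all genes). They ranged from Atp5d (223 and 198 in input, 127 and 112 in Rpl10a-IP, −0.84) to Ndufv2 (0.45). With the length and GC correction 11 of these 26 were higher and 4 lower (median 0.13), beside 675 and 719 of 2979 genes. The 9 listed glycolytic enzymes in the table ran from −0.16 to 0.29, and 1 of them, Pgam1, was higher, a call lost without Rpl10a-IP replicate 2. Eno1b, an enolase gene that was not on the list, was at −0.48, and it may share reads with near-identical Eno1. Mitochondrially encoded genes had 0 members in the table.

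Vesicle coat, sorting and trafficking genes were more often higher than all genes were. Of 85, 32 were higher (37.6%, beside 22.6% of all genes) and 14 lower (16.5%, beside 19.7%), with a median of 0.09 and a range from Vps13a, a lipid transfer protein with 623 and 683 in input and 1214 and 1013 in Rpl10a-IP (0.76), to the small GTPase Rab33b (−0.83). Of 21 genes of the endoplasmic reticulum translocon, its chaperones and N-glycosylation 3 were higher and 5 lower. Of 49 genes of FGF, WNT, TGF-beta, Notch and LIF signalling 13 were higher (26.5%) and 10 lower (20.4%), near the shares of all genes. Ctnnb1, the beta-catenin of WNT signalling and of adherens junctions, had 6043 and 6357 in input and 8635 and 8581 in Rpl10a-IP (0.47), and the activin receptor Acvr2b was lower (127 and 127 against 71.0 and 68.1, −0.91).

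In epiblast-like aggregates (ELA), the state these cells reach after 2 days as floating aggregates, the ratios of 21 of 38 named genes differed from those in ES cells by the stage-by-fraction interaction, a share close to the 56.3% of all genes that did. The ribosomal proteins had a median of −1.47 there, on ELA input libraries of 159587 and 410192 reads. The study's methods leave out the thinner of these, ELA input replicate 1. Without it the median was −1.48, and 23 of the 38 genes passed, beside 60.9% of all genes. Over 2979 genes the ELA ratio had a Spearman's rho of 0.65 with coding length, where the ES ratio had 0.26, and the part of length in these differences was not tested.

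Base composition and length ran across these classes. Coding sequences of 2979 genes could be read from GENCODE vM1. The median GC content of the coding sequence was 46.0% in genes higher in Rpl10a-IP, 53.9% in genes lower and 50.9% in genes without a call. The median coding length was 2070, 1185 and 1695 bases in the same order. When genes were split into 5 bins of equal size, the bin with the lowest coding GC content (35.0 to 45.6%) had a median log2 ratio of 0.24, with 52.5% higher and 5.20% lower. In the bin with the highest (55.2 to 74.2%) it was −0.15, with 4.53% higher and 36.2% lower.

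Over genes, which share the same 4 libraries and are not independent, Spearman's rho of the log2 ratio was −0.46 with coding GC content and 0.26 with coding length. It was −0.38 with the GC content of the 3′ UTR, and 0.02 and 0.04 with the lengths of the 5′ and the 3′ UTR. The relation to GC content was present among the shorter (rho −0.40) and the longer (rho −0.54) coding sequences, split at the median of 1674 bases. In the bin of the shortest coding sequences (114 to 924 bases) the median log2 ratio was −0.13, and in the bin of the longest (from 3162 bases) 0.10.

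Libraries of 1 fraction also differed along these axes. The log2 difference of the input libraries, replicate 2 minus replicate 1, had a rho of −0.33 with coding GC content. That of the Rpl10a-IP libraries had a rho of −0.43 with coding length. The part of these differences between libraries in the ratios was not tested. Within each replicate number, the rho of Rpl10a-IP minus input with coding GC content was −0.49 and −0.38, and with coding length 0.32 and 0.18. With the length and GC correction and the replicate block, 8 genes were higher and 79 lower beyond 1.5-fold among 2979. Slc7a14 (−2.77), Fth1 (−1.72) and Anp32b (−1.23) moved little, and Nae1 (0.78) and Usp9x (0.66) stayed the highest of those named.

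**Figure D5:**
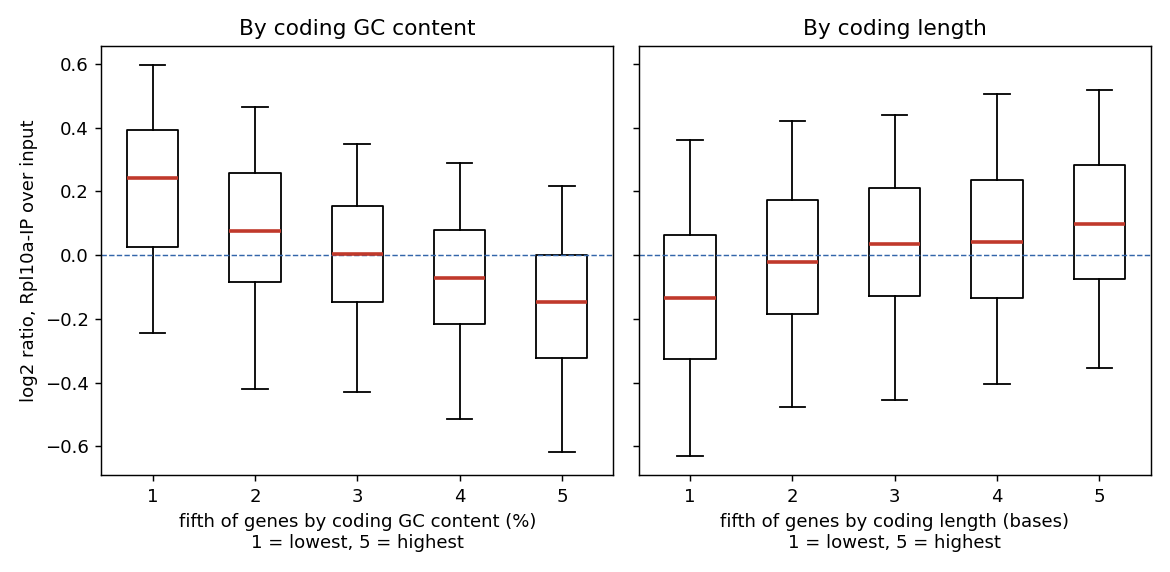
Log2 ratio (Rpl10a-IP to input) (vertical axis) for 2979 genes in 5 bins of equal size by coding GC content (left) and by coding length (right). Red lines are medians, boxes the middle 50% and whiskers the 5th to 95th percentile. The median falls from 0.24 to −0.15 across the GC bins and rises from −0.13 to 0.10 across the length bins.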

How the data were processed

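RNA was sequenced from input and Rpl10a-IP of ES cells and of ELA (2 libraries each), and the ES libraries were compared here. Per the paper's methods and the labels, the authors mapped reads to mm10 with TopHat2, counted them with htseq-count and divided them by DESeq2 size factors. The deposited values are these normalised counts, a signal per gene and library, already filtered by the authors on level and on replicate spread. In the table the spread of ratios, not of counts, stays under the 20% limit in every gene. The strand used in counting is not given in the sources used here. The deposited table also holds means, SDs, ratios and fold changes per the authors, and a log2 fold change computed by the authors; none of these were used. It held 0 per-sample columns that match no sample of the series.

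The test was limma's moderated linear model (limma 3.58.1 in R 4.3.3; lmFit, and eBayes with trend) on log2 of the normalised count plus 1, after each library had been centred and the median log2 ratio set to 0. Benjamini-Hochberg adjustment ran over 3160 genes, with a threshold of 0.05. The pseudocount was added before centring and so weighs more on input, whose deposited values are smaller. It lowers the ratios of low genes, so that it understates rises and overstates falls. No count model was run, although reads could be inferred from the normalised values. The precision is limited by 2 libraries per fraction. The prior degrees of freedom were 89.66 beside 2 residual, so the SE of a gene comes mostly from the trend over genes.

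Classes were described by counts of calls and medians. The members and lists were chosen with earlier results of these data known. Genes were named by rule: the 12 highest and 12 lowest called ratios without overlap of the fractions, up to 4 called members per class, and a fixed list of 24 genes, of which Sox2, Esrrb, Dicer1, Ftl1, Atf4, Gapdh, Malat1, Snhg1 and Gas5 were not analysed here. Other genes named were chosen after their values were seen. Some results are not reported here. RefSeq (GRCm38.p6) matched 3021 symbols and 128 synonyms, and 11 genes, among them 7 symbols turned into dates, had no match. Coding sequences of 2979 genes came from GENCODE vM1 (NCBIM37), the longest per gene, and were used without coordinates.

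The labels share replicate numbers between fractions, and the methods take input and pull-down from 1 lysate. Deviations of same-numbered libraries correlated at r = 0.17. Replicates correlated at r = 0.995 (input) and 0.997 (Rpl10a-IP) over genes. Alternatives were other scalings (total reads, and the trimmed mean of M values coded directly from its formula) and pseudocounts, a filter on a mean normalised count of 50, each library left out, the replicate block, the block with a loess correction (span 0.5) for length and GC content, and fits with 7 or 8 libraries.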

Additional observations from a re-analysis of the deposited data

Results flagged for a closer look

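Genes whose ES ratio differed from that in epiblast-like aggregates (ELA, 2 days in vitro) were picked out by the stage-by-fraction interaction in limma over all 8 libraries. Of 38 named genes tested, 21 passed an adjusted p-value under 0.05, beside 56.3% of all 3160 genes, so the named genes were close to the background. The ELA input libraries held only 159587 and 410192 reads. The study's methods leave out the thinner, ELA input replicate 1. Without it 23 of the 38 passed, beside 60.9% of all genes, and 2 of the 21 were lost, 2610005L07Rik (−0.26) and Zbtb37 (−0.42). Scaled by total reads, 19 passed, beside 54.7% of all genes, and 3 of the 21 were lost, Usp9x (−0.30), 2610005L07Rik (−0.38) and Ago2 (−0.29).

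Among genes high on ribosomes in ES cells, the ratio was lower in ES than in ELA for Vps13a (a difference of −0.96 on the log2 scale), Pik3c2a (−0.71), Smchd1 (−0.67), Bub1 (−0.47) and Usp9x (−0.38), and higher for Sep-07 (0.48). Among genes low in ES cells, it was lower still in ES for Slc7a14 (−0.85), Taf1d (−0.68), 1700020I14Rik (−0.67), Zbtb37 (−0.66) and 2610005L07Rik (−0.46), and less low for Anp32b (0.71) and Tpt1 (1.09). Among the genes named whatever their values, the ES ratio was above that in ELA for Nanog (1.51), Klf4 (0.80), Pou5f1 (0.57) and Actb (0.41), and below it for Chd4 (−0.80), Odc1 (−0.59), Dnmt3b (−0.47) and Ago2 (−0.37). Some of these differences rest on few ELA input reads, 10 and 26 for Nanog, 16 and 39 for Klf4 and 8 and 29 for Zbtb37. Over genes, Spearman's rho with coding length was 0.65 for the ELA ratio and 0.26 for the ES ratio. The part of length in the differences was not tested. Fth1 did not pass, with log2 ratios of −1.92 in ES and −2.05 in ELA.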

How the results depend on the processing

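Without centring, the median log2 ratio was 4.05 and all 3160 genes were called higher and 0 lower, 3160 of them beyond 1.5-fold, by the construction of the deposited scaling. With all 8 libraries in the fit there were 828 calls, 454 higher and 374 lower. With the length and GC correction and the replicate block there were 87 calls beyond 1.5-fold, 8 of them higher, and with total reads 28 were higher beyond 1.5-fold. Leaving out 1 library at a time gave 727 to 1394 calls, 387 to 724 higher and 340 to 670 lower, and beyond 1.5-fold 129 to 223, of which 33 to 75 were higher and 96 to 148 lower. Where a fraction was left with 1 library, that library was assumed to vary like the others. The replicate block alone left 716 genes higher and 647 lower and changed no call of a named gene.

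The median of the ribosomal proteins was −0.24 with the length and GC correction and −0.51 to −0.31 with a library left out. That of the mitosis genes was 0.070 with total reads, 0.030 with the correction and 0.050 to 0.11 with a library left out. The zinc finger and BTB factors were at −0.029 with total reads, −0.028 with a pseudocount of 10 and −0.033 with the correction, and between −0.018 and 0.0039 with a library left out. The respiratory chain (−0.09 to 0.13) and the remodellers (0.02 to 0.13) moved by less than the spread between replicates under every alternative run, that without centring aside. Of the medians of the other 40 classes, 529 of 599 recomputed values stayed within the spread between replicates, and of the ratios of named genes 2656 of 2770 kept their direction and side of the threshold. The direction turned for genes near 0. Pou5f1 went to 0.063 with a pseudocount of 10 and 0.21 with the correction, and ran from −0.16 to 0.13 with a library left out. Dnmt3b went to 0.054 and 0.061 and ran from −0.095 to 0.057. Eef1a1 went to 0.050 with a pseudocount of 10 and ran from −0.11 to 0.039, and 1810026B05Rik ran from −0.18 to 0.084. Differences between stages turned for Zcchc10 (0.0067 with 7 libraries and 0.0081 with total reads), Rpl10a (0.036 with total reads) and Tfrc (−0.011 with 7 libraries). The causes were not tested. Scaling libraries before adding the pseudocount, chosen after seeing the data, gave 704 higher and 626 lower. The planned count models (edgeR and DESeq2) were not run, although reads could be inferred from the deposited normalised counts.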
